A study of Mus musculus with 6 samples.

Results

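The mesothelial surface glycoproteins were followed as 8 genes, Msln, Muc16, Muc1, Upk1b, Upk3b, Podxl, Gpm6a and Lrrn4, of the 48440 genes counted. They were taken by symbol from a list of mesothelial surface proteins, with no measured value in the rule, and all 8 were found and had enough reads to be tested. The cells were mouse ovarian surface epithelium, the layer that covers the ovary and is continuous with the peritoneal mesothelium. Control cells, whose genotype is given as WT, received an adenovirus with GFP alone (Ad-GFP, 3 libraries), and Lats1/2 knockout cells an adenovirus with Cre recombinase and GFP (Ad-Cre-GFP, 3 libraries). RNA was sequenced 1 week later in both groups, and both had received an adenovirus with GFP. The share of cells that took up the virus was not tested here. The labels do not give the strain, age or floxed alleles of the mice, nor whether replicates came from separate cultures. Exposure to Cre and deletion of Lats1 and Lats2 coincide in these groups and cannot be told apart.

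Mesothelial cells carry a coat of heavily glycosylated proteins on their free surface, which keeps apposed tissues from sticking. Mesothelin, encoded by Msln, is a GPI-anchored glycoprotein cut from a longer precursor by furin, and it binds the transmembrane mucin MUC16, which carries the ovarian tumour antigen CA125. MUC1 is another transmembrane mucin. Uroplakin Ib is a tetraspanin that pairs with uroplakin III proteins, and podocalyxin (Podxl) is a sialomucin of the CD34 family that is tied to the actin cortex through NHERF adaptors and ezrin. Gpm6a encodes a membrane glycoprotein best known from neurons, and Lrrn4 a leucine-rich repeat membrane protein. The comparison asks how far the transcripts of this coat differ after Cre treatment aimed at the Hippo kinases LATS1 and LATS2, which restrain the coactivators YAP and TAZ.

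Library totals were 18690235 to 25363462 counts in the controls and 27734527 to 30304033 in the knockouts. Lats1 fell from 159 ± 8.74 to 37.0 ± 1.36 CPM (SD, n = 3) and Lats2 from 129 ± 2.17 to 98.6 ± 1.97 CPM, where CPM is the count scaled to 1e+06 per library with TMM factors (trimmed mean of M values). The CPM ranges summed over a list of genes, given later, were scaled to the library total without TMM factors. Lats2 thus kept 0.762 of its control level in the libraries labelled as knockouts. The counts cover the whole gene and the labels do not name the deleted exons, so these values are a limited check of the deletion. The second principal component, with 3.15% of the variance, set Ad-GFP replicate 3 against both other control libraries. For all 8 genes it was the control farthest from the knockout values, a place it took for 51.6% of all called genes. 

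Promoter sequences of 300 bases, from 250 before to 50 after the start site, were found in RefSeq (GRCm38.p6) for Muc16, Muc1, Upk3b, Gpm6a and Lrrn4. Those of Upk3b, which rose, and of Muc1 and Muc16, which fell, are shown because the factors that bind YAP and TAZ, the TEAD proteins, recognise the letters GGAATG. Capitals mark each match to GGAATG on either strand, and each sequence runs 5′ to 3′ on the strand of the gene.
Upk3b (chr5:136038246-136038545, plus strand): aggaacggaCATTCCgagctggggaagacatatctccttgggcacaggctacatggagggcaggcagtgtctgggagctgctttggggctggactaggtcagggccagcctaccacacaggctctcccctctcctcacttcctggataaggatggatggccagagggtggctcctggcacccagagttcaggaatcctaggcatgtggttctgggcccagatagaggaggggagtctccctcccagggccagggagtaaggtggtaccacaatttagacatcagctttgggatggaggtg
Muc1 (chr3:89228806-89229105, plus strand): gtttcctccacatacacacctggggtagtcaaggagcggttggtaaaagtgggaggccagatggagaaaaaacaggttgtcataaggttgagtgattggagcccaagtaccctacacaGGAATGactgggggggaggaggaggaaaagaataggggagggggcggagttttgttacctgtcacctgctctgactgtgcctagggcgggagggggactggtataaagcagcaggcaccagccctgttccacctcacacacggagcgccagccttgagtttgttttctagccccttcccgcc
Muc16 (chr9:18674554-18674853, minus strand): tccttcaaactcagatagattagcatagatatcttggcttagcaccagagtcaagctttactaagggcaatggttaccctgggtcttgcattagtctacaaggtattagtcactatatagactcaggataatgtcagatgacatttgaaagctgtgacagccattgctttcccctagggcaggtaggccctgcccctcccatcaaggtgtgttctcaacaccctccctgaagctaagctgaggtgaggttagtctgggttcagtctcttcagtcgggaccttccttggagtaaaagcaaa
Upk3b held 1 match, on the opposite strand (as CATTCC), that began 241 bases before the start site. Muc1 held 1 match, 132 bases before it, and the Muc16 window held none. The Muc16 window ended before the Muc16 start used here, 18674530, so it did not cover that start. The Lrrn4 window held 1 match as well, at 196 bases. Of the 2 Gpm6a windows, that at chr8:54779184-54779483 held 1 match, at 125 bases. This window lies well before the Gpm6a start used here, 54954843, and the window next to that start held none. Of 32851 promoter windows of the same length, 14.7% held at least 1 match. The share was 12.2% for windows of tested genes, 13.1% for those of genes called higher and 12.2% for those of genes called lower. GGAATG was thus in the windows of Upk3b, which rose, and of Muc1, which fell. For Gpm6a, which also fell, it was in the distant window only. The AP-1 letters TGANTCA, found in 7.81% of all windows, were in none of the 6 windows.

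The 8 genes went both ways. Msln, Upk3b and Upk1b rose in the knockout, Muc1, Muc16, Podxl and Gpm6a fell, and Lrrn4 was not called (adjusted p = 0.127). Calls are those of edgeR's quasi-likelihood test over 14811 genes, at p under 0.05 after Benjamini-Hochberg adjustment. Every adjusted p below is from that test, except where an alternative or a library left out is named. The 3 rises among 8 stand against 34.0% of all tested genes called higher, and the 4 falls against 35.8% called lower, so these counts are near what the whole table gave. The groups did not overlap for 7 of the 8 genes, against 73.0% of tested genes. Muc1 is counted among both the falls and these 7. It passed the filter on low counts through the control libraries alone, so a called change of it could only be a fall. The median log2 change was -0.41 over the 8 and -0.01 over all genes. The rises were in 3 of the 4 genes with the highest levels per length, and the falls were in genes at 1.16 CPM per kilobase of exon or less in the controls, apart from that of Gpm6a. In bulk RNA, fewer cells that express a gene and less RNA per cell cannot be told apart.

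**Figure D1:**
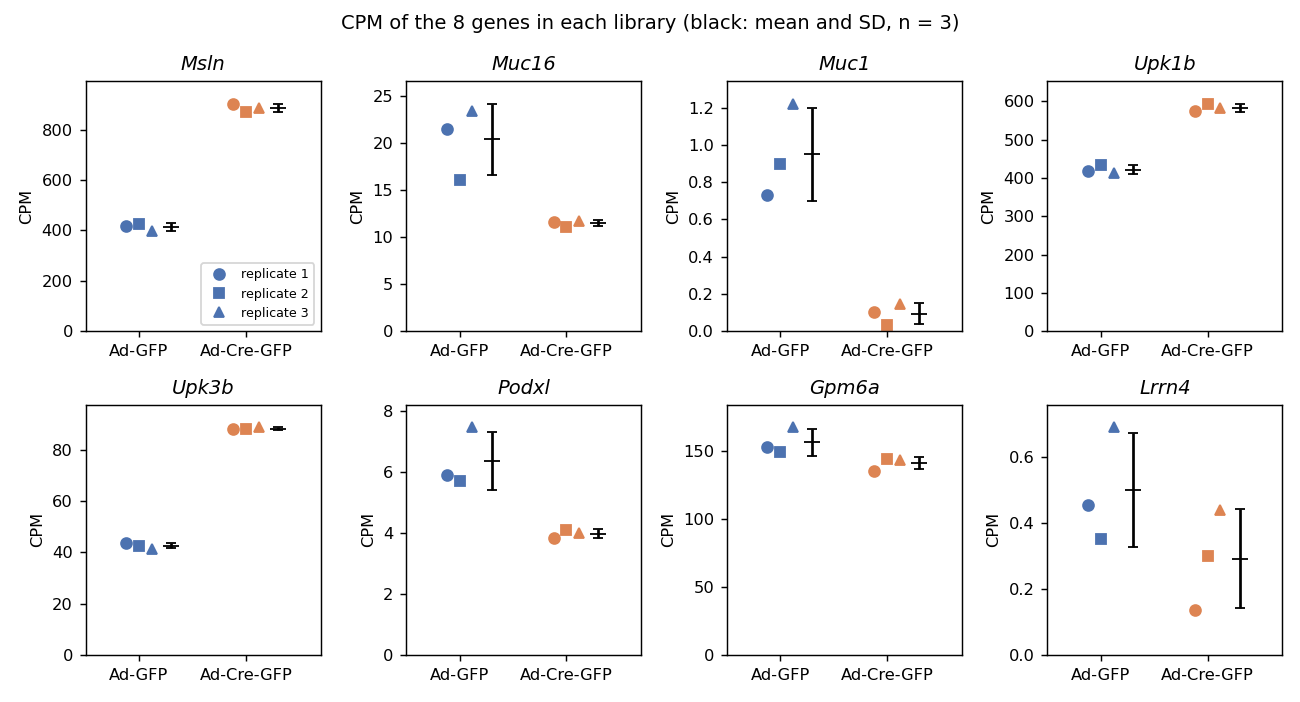
CPM (vertical axis, from 0) of each gene in the 3 Ad-GFP and 3 Ad-Cre-GFP libraries, with the symbol shape giving the replicate and black bars the mean and SD. The groups are apart for 7 genes and overlap for Lrrn4, and Ad-GFP replicate 3 is the lowest control for Msln, Upk1b and Upk3b and the highest for the other 5.

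Msln (chromosome 17, 25748613 to 25754378, minus strand, GRCm38) was at 416, 426 and 397 CPM in the control libraries and at 902, 869 and 886 CPM in the knockouts. The 3 knockout libraries thus lay close together at about the same distance above the controls. This was a 2.15-fold rise, a log2 change of 1.10 ± 0.03 (SE, adjusted p = 5.24e-18), and the 95% interval of the log2 change ran from 1.04 to 1.17. The neighbouring paralog Mslnl, whose gene ends 283 bases from the end of Msln on the opposite strand, had 7, 9 and 8 reads in the controls and 54, 50 and 46 in the knockouts. Its log2 change of 2.25 ± 0.26 (adjusted p = 9.70e-08) had the sign of that of Msln, but at 24 against 27506 reads over the controls it was far lower, and it passed the filter on low counts mainly through the knockout libraries. The sources used here do not say whether reads were counted by strand, and the part of Msln reads in the Mslnl counts was not tested. Narfl, the nearest tested gene on the other side at 19.4 kb, changed by 0.49 ± 0.06. Among the mesothelin relatives of the inner ear, Strc and Otoa had too few reads to test, at most 7 in any library.

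Muc16 (chromosome 9, 18495455 to 18674530, minus strand), the binding partner of mesothelin, went the other way. It had 21.5, 16.1 and 23.4 CPM in the controls and 11.6, 11.1 and 11.7 CPM in the knockouts. The controls varied far more than the knockouts, with replicate 2 lowest, yet each lay above every knockout library. The log2 change was -0.81 ± 0.13 (adjusted p = 3.30e-04), or -0.97 without Ad-GFP replicate 2 and -0.70 without replicate 3. The ratio of Msln to Muc16 reads per kilobase of exon, which no scaling between libraries can move, was 166, 227 and 146 in the controls and 672, 671 and 649 in the knockouts. It was 3.76-fold higher in the knockout group, and the exact two-sided permutation test gave p = 0.1, the smallest value that 3 against 3 libraries allow.

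**Figure D2:**
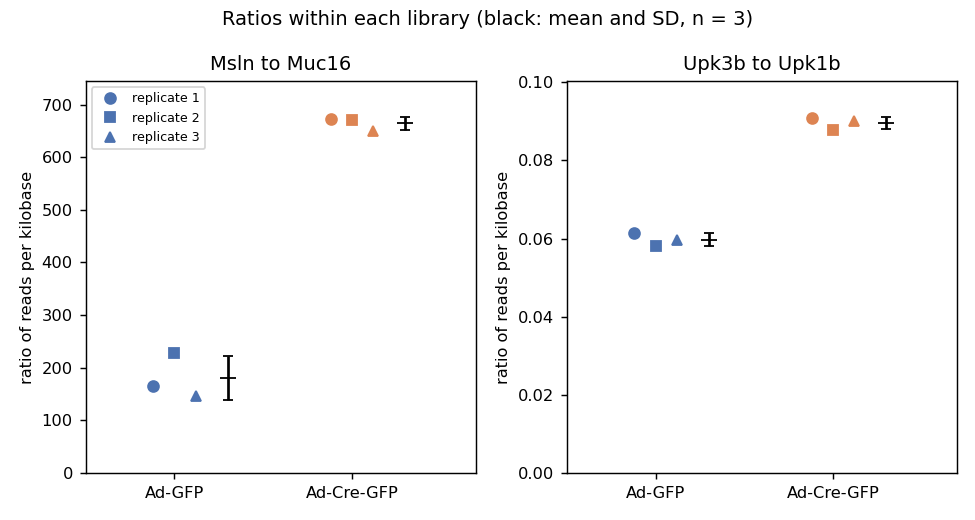
Ratio of reads per kilobase within each library (vertical axes, from 0) for Msln to Muc16 and for Upk3b to Upk1b, with the replicate by symbol and black bars for mean and SD. The 3 knockout libraries, at 649 to 672 and at 0.0878 to 0.0908, lie above the 3 controls in both panels.

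Muc1 (chromosome 3, 89229057 to 89233381, plus strand) was a low transcript that was almost lost. Its reads numbered 16, 23 and 23 in the control libraries and 3, 1 and 4 in the knockouts. Every knockout library was far below every control, at 0.0939 ± 0.0567 against 0.949 ± 0.249 CPM. Over the groups, 62 against 8 reads made a level 10.4-fold lower (95% exact binomial interval 4.94 to 25.1, for counting error only), and the fitted log2 change was -3.27 ± 0.44 (adjusted p = 7.66e-07), or -3.09 without Ad-GFP replicate 3. Muc1 passed the filter on low counts through the control libraries alone, so that any tested difference had to be a fall. Trim46, 0.796 kb from Muc1 on the opposite strand, fell by 0.81 on the log2 scale (adjusted p = 9.16e-06), and Mtx1, 1.97 kb to the other side, rose by 0.22 (adjusted p = 0.00921). Of 6 oviduct epithelium markers 2 could be tested. Epcam, an adhesion gene, fell from 1.60 ± 0.272 to 0.127 ± 0.129 CPM, having passed the filter through the controls alone, and the secreted Ovgp1, at 2.36 ± 0.388 and 2.55 ± 0.146 CPM, was not called (adjusted p = 0.497). Summed over that list, oviduct markers were at 3.43 to 4.59 CPM in the controls and 2.64 to 2.93 CPM in the knockouts. Pax8 had at most 2 reads in any library and Cldn3 and Cldn4 none, and the part of such cells in the fall of Muc1 was not tested.

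Of the 8 transmembrane mucins in the table, Muc16, Muc1 and Muc13 had enough reads to be tested. Muc13 had 11, 21 and 14 reads in the controls and 3, 5 and 3 in the knockouts, and like Muc1 it passed the filter through the controls alone, so a called change of either could only be a fall. Muc3, Muc3a and Muc20 had no reads, and Muc4 and Muc15 at most 4 in any library. Of the secreted gel-forming mucins, Muc2 fell from 1.96 ± 0.140 to 0.944 ± 0.167 CPM (log2 change -1.04 ± 0.21, adjusted p = 1.33e-04). Muc6 was not called (0.21 ± 0.30, adjusted p = 0.541).

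The uroplakins Upk1b and Upk3b both rose. Upk1b (chromosome 16, 38773184 to 38800328, minus strand) was at 419, 434 and 412 CPM in the controls and 574, 594 and 582 CPM in the knockouts. The groups were well apart and their replicates tight. The rise was 1.38-fold, with a log2 change of 0.47 ± 0.03 (adjusted p = 7.06e-12). Upk3b (chromosome 5, 136038496 to 136046487, plus strand) was at 43.5, 42.6 and 41.5 CPM in the controls and 88.0, 88.1 and 88.7 CPM in the knockouts. This was a 2.07-fold rise (log2 change 1.05 ± 0.04, adjusted p = 1.98e-16), with the smallest relative spread of the 8 genes in either group of libraries. Reads per kilobase of Upk3b were 0.0614, 0.0580 and 0.0596 of those of Upk1b in the controls and 0.0908, 0.0878 and 0.0902 in the knockouts. The ratio was 1.50-fold higher in the knockouts with no overlap (exact two-sided permutation p = 0.1, the smallest possible), and Upk1b stayed the far more abundant transcript. Upk2 and Upk3a, which build the urothelial plaque together with the uroplakins I, and Upk3bl had no reads, which allows up to 0.1 to 0.159 CPM per library. Upk1a was at 0.469 ± 0.137 and 0.458 ± 0.149 CPM and was not called (log2 change -0.06 ± 0.36, adjusted p = 0.895). The closest tested neighbour of each gene was called lower, B4galt4, 4.13 kb from Upk1b, with a log2 change of -0.23 ± 0.03 and Dtx2, 5.62 kb from Upk3b, with -0.20 ± 0.08.

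Podxl (chromosome 6, 31519488 to 31563981, minus strand) was at 5.92, 5.71 and 7.47 CPM in the controls and 3.83, 4.11 and 4.01 CPM in the knockouts. All knockout libraries lay below all controls, of which replicate 3 was the highest. The log2 change was -0.66 ± 0.12 (adjusted p = 4.43e-05), or -0.54 without that library (adjusted p = 4.14e-04). Its relative Podxl2 (endoglycan) fell from 14.4 ± 1.44 to 7.13 ± 0.407 CPM (-1.0 ± 0.09, adjusted p = 9.13e-10), and Cd34 had at most 3 reads in any library. Podocalyxin is also made by endothelium. The endothelial markers Tie1, Emcn and Cldn5 had no reads, Pecam1 at most 8 and Cdh5 at most 2 in any library. The summed endothelial list was 3.05 to 3.08 CPM in the controls and 9.88 to 11.2 CPM in the knockouts, with Flt1 and Kdr called higher, Kdr having passed the filter through the knockouts alone. The part of such cells in the Podxl values was not tested.

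Gpm6a (chromosome 8, 54954843 to 55060871, plus strand) was abundant and hardly moved. It was at 153, 149 and 167 CPM in the controls and 135, 144 and 143 CPM in the knockouts. The groups did not overlap, but the lowest control and the highest knockout library were close. The log2 change of -0.15 ± 0.04 was called (adjusted p = 0.00270), with an interval from -0.23 to -0.07. It was -0.10 without Ad-GFP replicate 3 and -0.11 without Ad-Cre-GFP replicate 1, with adjusted p = 0.00976 and 0.0307. Its paralog Gpm6b had at most 10 reads in any library. The neuronal genes Snap25, Rbfox3 and Syt1 had at most 6 reads in any library, while the summed neuron and glia list was at 121 to 124 CPM in the controls and 390 to 399 CPM in the knockouts, with Map2 and Mbp called higher.

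Lrrn4 (chromosome 2, 132868305 to 132880891, minus strand) was the lowest of the genes in the controls. It had 10, 9 and 13 reads there and 4, 9 and 12 in the knockouts, and the groups overlapped. The log2 change was -0.73 ± 0.42, with a 95% interval from -1.61 to 0.14, which includes 0. With single libraries left out it ran from -0.38 (adjusted p = 0.441, without Ad-Cre-GFP replicate 1) to -1.10 (adjusted p = 0.0475, without Ad-Cre-GFP replicate 3), and it was -0.46 (adjusted p = 0.409) without Ad-GFP replicate 3. Other genes of the LRRN family moved more. Lrrn1 fell from 46.4 ± 5.17 to 2.95 ± 0.126 CPM (-3.97 ± 0.09, adjusted p = 2.25e-17), and Lrrn4cl rose from 1.89 ± 0.0549 to 4.19 ± 0.139 CPM (1.14 ± 0.14, adjusted p = 2.49e-07). Lrrn2 and Lrrn3 had at most 4 reads in any library.

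**Figure D3:**
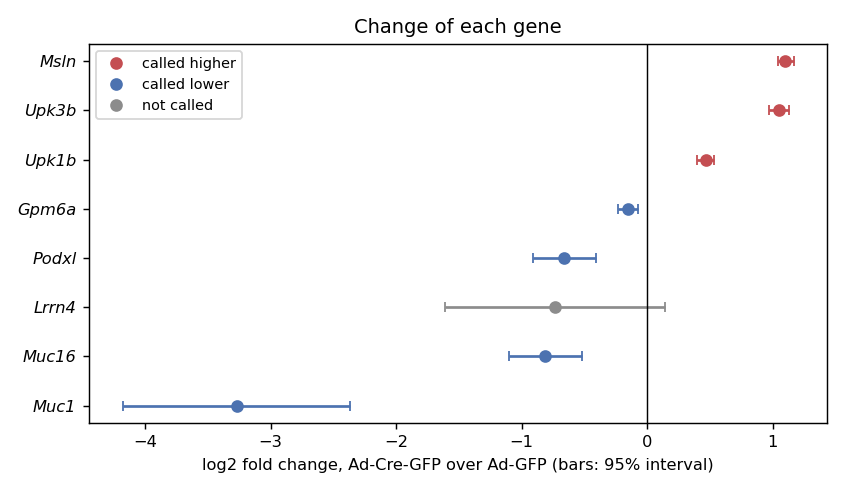
Log2 fold change of each gene in Ad-Cre-GFP over Ad-GFP (horizontal axis) with its 95% interval, coloured by call. The intervals of Msln and Upk3b lie near 1, that of Upk1b from 0.40 to 0.53, and that of Lrrn4 spans 0.

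Levels per length, in CPM per kilobase of merged exons, put Upk1b first in the controls at 202 ± 5.41, Msln next at 135 ± 4.78, then Gpm6a at 48.6 ± 3.09 and Upk3b at 12 ± 0.278. Podxl was at 1.16 ± 0.175, Muc16 at 0.772 ± 0.143, Muc1 at 0.404 ± 0.106 and Lrrn4 at 0.134 ± 0.0464. No neighbours in this order overlapped over the 3 control libraries. In the knockouts Msln (289 ± 5.38) and Upk1b (279 ± 4.77) overlapped, as did Lrrn4 (0.0785 ± 0.0406) and Muc1 (0.0400 ± 0.0242). Among 14761 tested genes with a length, Upk1b ranked 302 and Msln 443 in the controls, and 223 and 216 in the knockouts. Muc16, whose merged exons cover 26350 bases, ranked 12239 and 12969. The transcripts of mesothelin and of its binding partner thus lay far apart in level in both groups. How far depends on the length used for Muc16. Without division by length, Msln and Muc16 were at 413 and 20.4 CPM in the controls and 886 and 11.5 CPM in the knockouts, a smaller gap.

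**Figure D4:**
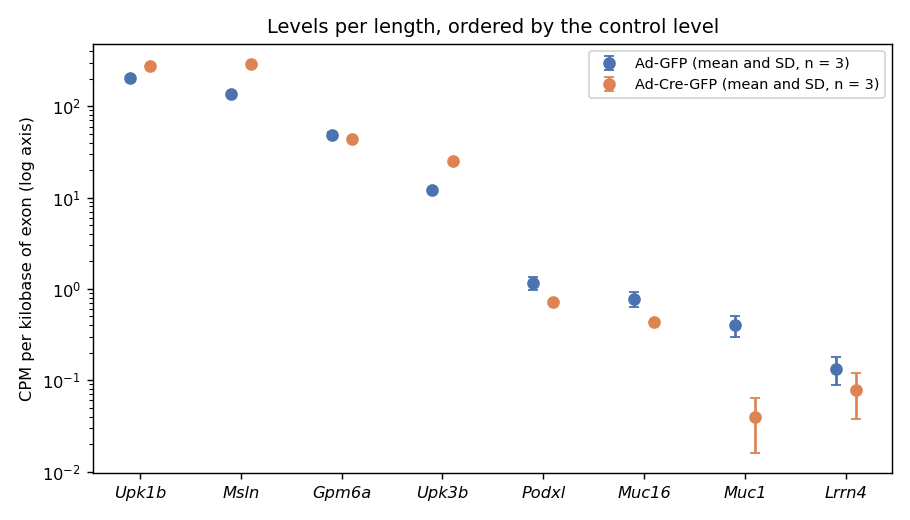
Mean level of each gene in CPM per kilobase of exon (vertical log axis) in Ad-GFP and Ad-Cre-GFP, with SD bars (n = 3), ordered by the control level. From Upk1b to Upk3b the levels are 12 or more, and from Podxl to Lrrn4 they are 1.16 or less.

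Genes that act on or with these proteins were read from lists drawn up by function, each count being set beside the 34.0% higher and 35.8% lower of all genes. Of 7 cytoplasmic and galectin partners, 5 rose and 2 fell, with a median log2 change of 0.44. The rises were those of the cortical linkers Ezr (ezrin), Rdx and Msn and of the NHERF adaptors Slc9a3r1 and Slc9a3r2, which tie podocalyxin to actin. Ezr rose from 1207 ± 22.1 to 1849 ± 15.8 CPM (0.62 ± 0.03), Slc9a3r1 by 0.60 ± 0.03 and Slc9a3r2 by 0.83 ± 0.05. The falls were those of both galectins, Lgals1 and Lgals3, the latter a lectin that binds MUC1 and MUC16, from 212 ± 1.11 to 144 ± 2.89 CPM (-0.56 ± 0.03, adjusted p = 2.96e-13). Podxl therefore went the other way from all 5 of the listed linkers.

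Of 27 enzymes of mucin-type O-glycosylation, 19 were tested, of which 3 rose, 10 fell and 6 were not called (median -0.15). St3gal1, which caps the core O-glycan with sialic acid, fell from 31.6 ± 1.34 to 3.75 ± 0.222 CPM (-3.07 ± 0.07, adjusted p = 3.03e-19). Gcnt3, a branching enzyme of mucin glycans, fell from 91.3 ± 6.95 to 23.9 ± 0.413 CPM (-1.93 ± 0.05). The sialyltransferase genes St3gal2 and St6galnac6 fell too (-0.75 ± 0.03 and -0.80 ± 0.05), whereas St3gal4 rose by 0.48 ± 0.03. Among the enzymes that start the chains, Galnt18 went from 5, 10 and 7 reads to 134, 128 and 134, having passed the filter mainly through the knockouts. The only other call for a rise was Galnt10, from 60.3 to 70.6 CPM in the mean, and St3gal4, Galnt18 and Galnt10 were picked out after their values were seen.

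Mesothelin needs cleavage by furin and a GPI anchor. Of 8 proprotein convertases and sheddases 2 rose and 6 fell, with a median of -0.58, one of the falls being that of Bace2, which passed the filter through the controls alone. Furin fell from 175 ± 5.01 to 90.8 ± 2.50 CPM (-0.94 ± 0.03, adjusted p = 2.08e-16), and Pcsk5, a related convertase, rose from 3.60 ± 0.382 to 25.8 ± 0.574 CPM (2.83 ± 0.08). The sheddase Adam10 fell from 1060 ± 67.5 to 482 ± 7.24 CPM (-1.14 ± 0.04), and Bace1 by -0.60 ± 0.04. Of 10 genes of GPI anchor attachment and remodelling, 2 rose and 5 fell (median -0.11). The largest were Pgap1 (-0.79 ± 0.07) and Pgap3 (-0.72 ± 0.09), which remodel the anchor, while Pigk, the catalytic subunit of the transamidase that attaches it, fell by 0.38 on the log2 scale and Gpld1, a phospholipase that cuts the anchor, rose by 0.34 ± 0.07.

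**Figure D5:**
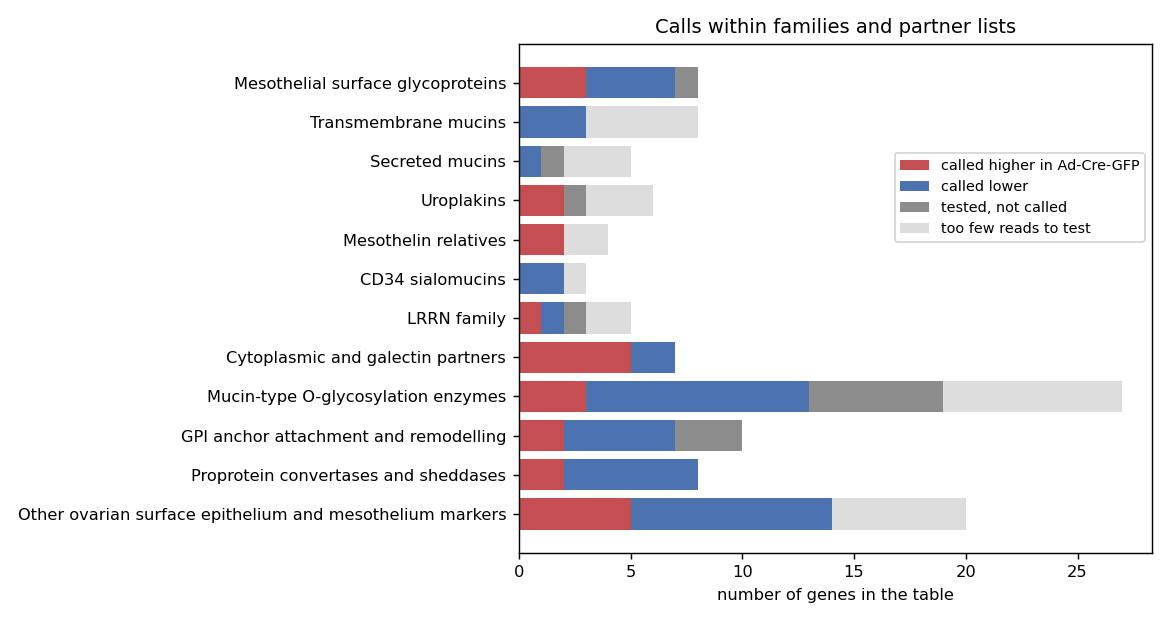
Number of genes in the families and partner lists shown (horizontal bars) that were called higher, called lower, tested but not called, or had too few reads to test. Among the 19 tested O-glycosylation enzymes 10 were called lower, and 5 of the 7 cytoplasmic and galectin partners were called higher.

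Other markers checked the label of the cells. Of 20 further ovarian surface epithelium and mesothelium markers, 14 were tested. Of these 5 rose and 9 fell (median -0.54), against 34.0% higher and 35.8% lower of all tested genes. Efemp1, one of the rises, passed the filter through the knockouts alone. In the knockouts, where both were lower than in the controls, Wt1 was still at 90.6 CPM and Krt8 at 306 CPM, and Krt18 was at 563 CPM in the controls and 595 CPM in the knockouts, while Calb2 (calretinin) and Aldh1a2, both found in other mesothelium, had no reads. Krt19 fell from 559 ± 9.99 to 185 ± 6.87 CPM (-1.60 ± 0.03), Gata4 from 273 ± 5.60 to 106 ± 1.15 CPM, and C3, a complement component, from 20.7 ± 2.45 to 3.42 ± 0.101 CPM. Pdpn (podoplanin), another sialylated mesothelial surface glycoprotein, rose from 32.1 ± 1.22 to 80.4 ± 1.77 CPM (1.33 ± 0.04, adjusted p = 2.90e-17). The summed markers were 2382 to 2394 CPM in the controls and 1554 to 1581 CPM in the knockouts. Krt8, Krt18 and Krt19 made most of these sums. The summed 8 genes were at 1062 to 1083 CPM in the controls and 1688 to 1697 CPM in the knockouts. Most of that came from Msln (413 and 886 CPM) and Upk1b (422 and 583 CPM), while 4 of the 8 genes fell (median -0.41 over the 8). Stromal fibroblast markers summed to 2709 to 2868 CPM in the controls and 972 to 1031 CPM in the knockouts, and 5 of 5 tested were called lower, against 35.8% of all genes. Of these, Pdgfra and Dpt passed the filter through the controls alone, and Dcn, Col3a1 and Col1a1 passed it in all libraries. Lum had no reads, and Col1a2 had at most 4 in any library. Leukocyte markers summed to 11.1 to 13.4 and 6.53 to 7.14 CPM, with Cd14 called lower (-1.23 ± 0.11), Cd68 not called (-0.02 ± 0.15, adjusted p = 0.914) and Adgre1 at 0. Granulosa markers summed to 3.26 to 3.85 and 2.99 to 4.08 CPM, but the 3 tested went both ways. Foxl2 (2.24 ± 0.49, passing the filter through the knockouts alone) and Amh (1.17 ± 0.21) rose and Inha fell (-1.52 ± 0.20), while Cyp19a1 and Fshr were at 0. The part of a changed cell mixture in the values of the 8 genes was not tested.

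Genes with the most similar profiles were found by the root mean square difference in log2 CPM over the 6 libraries. Before the log 0.1 CPM was added, and each gene was centred on its control mean. Candidates were 9783 named genes of at least 5 CPM. For Msln they were Mbnl3 (difference 0.0156) and Nop2 (0.0241), for Upk3b Polk (0.0173) and Piezo1 (0.0187), and for Upk1b Rfc1 (0.0123) and Cdv3 (0.0146). For Podxl they were Txnip (0.0443) and Zfp950 (0.0457), for Gpm6a Tmx3 (0.0141) and mt-Co3 (0.0167), and for Muc16 Nek3 (0.0942) and Col20a1 (0.103). The nearest genes to Muc1, Shank3 and Ypel2, were at 0.231 and 0.241, and those to Lrrn4, Ube2e2 and Zfp758, at 0.305 and 0.306. Msln, Upk3b and Upk1b thus had very close matches, and the low transcripts Muc1 and Lrrn4 had none at a comparable distance. Both were under the 5 CPM asked of candidates, so no gene at their level was compared. Their larger distances therefore cannot be told apart from the noise of few reads. This likeness rests on 6 libraries in 2 groups, so it is a description only.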

How the data were processed

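Poly(A) RNA of 6 libraries was sequenced. The authors deposited whole-number read counts per Ensembl gene, made from BAM files, per the file headers. Of software, the submitters' processing notes list kallisto 0.46.2 and sleuth 0.30.1, and of builds GRCm38; for the aligner, counter and strand setting, the answer is "not given in the sources used here". Symbols, positions and merged exon lengths came from GENCODE mouse release 21 (GRCm38), which matched 48058 of 48440 IDs.

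Genes passing filterByExpr (14811) were fitted with TMM scaling in edgeR 4.0.16 (quasi-likelihood, robust dispersion) under R 4.3.3, after the script was tested on simulated data. SE is the log2 change over the square root of F. Alternatives were other scalings and filters, DESeq2 1.42.0, limma-voom (limma 3.58.1), thinning to equal depth, leaving out each library, and a block for replicate number. Replicate pairs of a group differed by more than sampling noise (chi-square per gene 2.04 to 4.27). With no statement that replicates are separate cultures, p-values measure the spread of these libraries alone, which may be technical. The upper limit for a count of 0 is 3 counts, and it covers, like the 95% exact binomial intervals, counting error only.

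The 8 genes and all lists were chosen with earlier results of these data known. All 8 genes are named; from each list, up to 4 called genes with the largest change and at least 5 CPM are named, and others as said or to show a family or cell type. No transcript of the 8 aligned to another gene over 200 bases at 90% identity (minimap2 2.31). Muc16 overlaps Gm25295, at 0 reads, and Gpm6a overlaps 5 models with at most 3 reads each per library. One related gene is not reported here.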

Additional observations from a re-analysis of the deposited data

How the results depend on the processing

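Each of the 7 calls kept its direction and its side of the threshold in every alternative that tested it. A filter at a mean of 1 CPM left Muc1 and Lrrn4 untested, and thinning left Lrrn4 untested. Over all alternatives, log2 changes ran from 1.07 to 1.12 for Msln, 1.04 to 1.07 for Upk3b, 0.45 to 0.49 for Upk1b, -0.97 to -0.70 for Muc16, -3.68 to -2.87 for Muc1, -0.74 to -0.54 for Podxl and -0.19 to -0.10 for Gpm6a. Lrrn4 ran from -1.10 to -0.38 and was called only without Ad-Cre-GFP replicate 3 (-1.10, adjusted p = 0.0475). Genes called over the whole table numbered 10344, and 9351 to 10854 in the alternatives. The log2 ratio differences ran from 1.77 to 2.09 for Msln to Muc16 and 0.57 to 0.61 for Upk3b to Upk1b.

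Whether replicate numbers pair the libraries was not settled. Same-numbered libraries correlated at only 0.049, 0.051 and 0.005 in their deviations from the group means. For the first and second controls the same number gave the highest value, and the third control correlated best with another number (0.016). With a replicate block 10482 genes were called and no call among the 8 changed.

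Among list genes, calls of St6galnac4 (adjusted p = 0.0591 to 0.209), Pigt (0.0572 to 0.0878), Krt18 (0.0578 and 0.0658) and Lhx9 (0.0739 and 0.0785) were lost in some alternatives, including single libraries left out. Few reads limited Muc1 and Lrrn4, with 8 and 25 over all knockout libraries, although these libraries had higher totals than the controls.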

Other observations

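Each gene's share of the summed CPM per kilobase of the 8 was a share of RNA, and no protein was measured. The share of Msln rose and that of Upk1b fell, although Upk1b itself was called higher (log2 change 0.47). Msln made 32.9% to 34.1% of the sum in the control libraries and 44.4% to 46.2% in the knockouts, and Upk1b 50.1% to 51.1% and 43.1% to 44.5%. Gpm6a went from 11.3% to 13.2% down to 6.61% to 7.01%, and Upk3b from 2.96% to 3.09% up to 3.91% to 3.94%. Muc16, Muc1, Podxl and Lrrn4 each made at most 0.346% of the sum in any library. These shares add up to a whole, so a rise of one lowers the others.

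Podxl had a far neighbour that moved more than it did: Plxna4, a plexin receptor of semaphorins and the nearest tested gene on one side at 580 kb, fell from 3515, 3851 and 3353 reads in the controls to 378, 398 and 362 in the knockouts (log2 change -3.63 ± 0.06, adjusted p = 3.72e-16). On the other side Mkln1, at 2.68 kb, changed by -0.15 ± 0.04.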
